A study of Mus musculus with 4 samples.

Results

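Hmga2, Hmga1, Lin28b, Igf2bp1, Igf2bp2 and Igf2bp3, a set of genes of the HMGA, LIN28 and IGF2BP families, were followed in a mouse melanoma after withdrawal of the drug that induces its NRAS oncogene. Members were all probe sets of a mouse expression array whose annotated symbol was one of these 6 names. Of the 6 genes, 4 had a probe set listed under a single symbol, 15 probe sets in all (4 for Hmga2, 4 for Igf2bp1, 6 for Igf2bp3 and 1 for Lin28b), of 18193 genes and 34945 probe sets so named. Hmga1 and Igf2bp2 matched no listed probe set and were not analysed here. The set was chosen by the intensities of Hmga2 on these same arrays, where it was among the genes with the greatest fall after withdrawal, so its values are a description and no test was run on them.

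The tumours were grown from iNRAS-475, a mouse melanoma cell line whose NRAS is inducible with doxycycline, by injection into the dermis of nude mice that drank water with 2 mg/ml of the drug. All 4 tumours came from this 1 line and grew in hosts on the drug, and they had reached 200 to 500 mm3 after 6 weeks. A control tumour was taken on doxycycline, and the others at 24, 48 and 72 h after the drug had been withdrawn. Nude mice lack a normal thymus and so most T cells, but keep the stromal and myeloid cells that enter a tumour. Age and sex of the hosts are not in the sources used here. Each condition had 1 array, so animal, tumour piece and condition cannot be told apart, no difference has a replicate error, and no p-value is given.

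HMGA proteins bind AT-rich DNA through AT-hooks and bend it, and HMGA2 is abundant in embryos, scarce in most adult tissues and made again in many tumours. IGF2BP proteins are RNA-binding proteins that stabilise and transport target mRNAs, among them that of the growth factor IGF2, and IGF2BP1 and IGF2BP3 are likewise mainly embryonic. LIN28B is an RNA-binding protein that blocks the maturation of let-7 microRNAs. The mRNAs of Hmga2, Lin28b and the Igf2bp genes are classic targets of let-7, which pairs with them through its seed.

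MicroRNAs were not measured and target sites were not searched; the let-7 sequences are shown as background, for the seed that the family shares. With the sequences from the opposite arm of the precursors left out, RefSeq (GRCm38.p6) lists 11 mature mouse sequences of this family from 13 loci. Of these, 10 have the same seed, bases 2 to 8, in capitals here. Let-7a is shown as the type, from chr13:48538239-48538260 on the minus strand, with let-7d and miR-98 as sequences that differ from it outside the seed. Let-7j is shown because it alone of the 11 had another seed.
let-7a-5p: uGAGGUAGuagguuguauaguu
let-7d-5p: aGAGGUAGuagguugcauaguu
miR-98-5p: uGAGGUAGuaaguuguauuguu
let-7j: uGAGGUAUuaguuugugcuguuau

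Hmga2 was far lower at 48 and 72 h off doxycycline than on it, in all of its brighter probe sets, whereas at 24 h it was no lower. Its brightest probe set, 1450780_s_at, gave an intensity of 3591 for the control and of 3799.5, 380.2 and 127.8 for the 24, 48 and 72 h arrays. Its suffix marks probes that can also pair with related transcripts, and without it the next brightest gave the same course. The array at 48 h thus held 10.6% of the control's intensity and that at 72 h 3.56%. Probe set 1422851_at read 1949.9, 2155.5, 190.4 and 73.4 over the same arrays, and 1450781_at read 576.04, 841, 100.3 and 23.8. The dimmest, 1446196_at, read 37.1, 96.8, 17.4 and 12.0. The first 3 of these share the accession of their target sequence, X58380, so they read the same target and are not replicates. The arrays measured whole tumour pieces, so fewer cells of a type and less RNA per cell cannot be told apart.

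All 4 Hmga2 probe sets put the arrays in the same order, with 24 h highest, the control next, then 48 h and 72 h. Of the 13522 genes kept by a filter on dim signal (mean intensity of at least 24.9), 5.89% had this order. A probe set with a value that repeats between arrays, as 48.0% of all probe sets have, cannot show it, which lowers that share. Hmga2 was chosen on these same arrays, so nothing is read from the share. At 24 h the intensity was above the control 1.06-fold for 1450780_s_at, 1.11-fold for 1422851_at, 1.46-fold for 1450781_at and 2.61-fold for 1446196_at, so the probe sets differed in the size of this first step. The control was 28.1-fold, 26.6-fold and 24.2-fold above the 72 h array for 1450780_s_at, 1422851_at and 1450781_at. For 1446196_at it was 3.09-fold. The 72 h readings of 1450781_at and 1446196_at were below the filter's level, so the folds of both are uncertain.

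The greater part of the difference lay between 24 and 48 h, a step that does not use the control array. Over this step the intensity of Hmga2 was lower 9.99-fold for 1450780_s_at, 11.3-fold for 1422851_at, 8.39-fold for 1450781_at and 5.58-fold for 1446196_at. From 48 to 72 h it was lower by a further 2.98-fold, 2.59-fold, 4.21-fold and 1.45-fold in the same order. For the pair of probe sets that stayed above the filter's level on every array, 1450780_s_at and 1422851_at, the later step was the smaller.

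**Figure D1:**
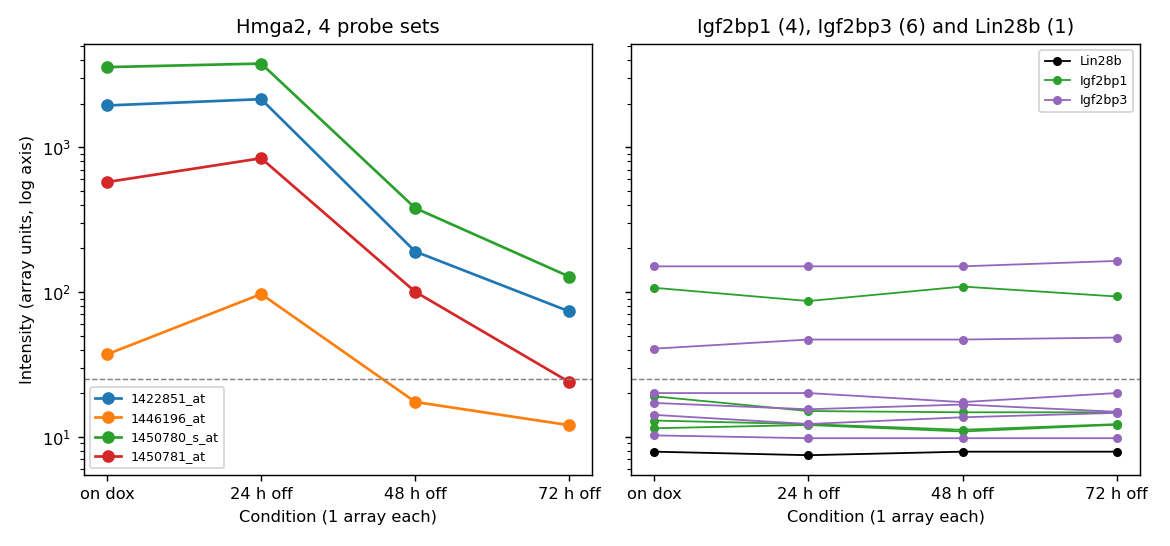
Intensity (array units, log axis) of every probe set of the members on the control array and at 24, 48 and 72 h off doxycycline, with 1 array per condition and the level of the filter on dim signal, 24.9, as a dashed line. The 4 Hmga2 probe sets (left) have their highest value at 24 h and their lowest at 72 h, while the 11 of Igf2bp1, Igf2bp3 and Lin28b (right) stay within a 1.29-fold range each.

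On the scale used to compare genes, log2(intensity + 32), which understates the differences of dim genes, Hmga2 by its brightest probe set differed from the control by 0.08, -3.14 and -4.50 at the successive times. A difference of 1 or more in either direction is called 2-fold. Of the 3 members kept by the filter (Hmga2, Igf2bp1 and Igf2bp3), 0 were 2-fold lower at 24 h and 1, Hmga2, at each later time, and 0 were 2-fold higher at any time. Over all 13522 genes 0.0666%, 1.04% and 1.63% were 2-fold lower at the 3 times, and 0.266%, 0.754% and 2.29% were 2-fold higher. These contrasts chose Hmga2, so nothing is read from its place in them. Counted from the lowest difference up, it stood at place 2 of 13522 at both 48 and 72 h.

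Between withdrawal times Hmga2 differed by -3.22 from 24 to 48 h, where it was the lowest of all genes, by -1.37 from 48 to 72 h, where it stood at place 15, and by -4.58 from 24 to 72 h. These steps use the same arrays on which Hmga2 was chosen, so nothing is read from its place in them either. It was the only member 2-fold lower over each of these steps, and 0 members were 2-fold higher. Of all genes 1.01%, 0.214% and 1.85% were 2-fold lower over them and 0.569%, 0.917% and 1.97% higher. The 48 to 72 h call depended on the setting: the difference was -0.99 with a pseudocount of 128 in place of 32 and -0.96 with the mean over the probe sets.

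Igf2bp3, the fetal RNA-binding protein also called IMP3, showed no such course in its readings. Its brightest probe set, 1433731_at, read 150.4 on 3 arrays, the control included, and 164 on that of 72 h, a difference of 0.10 on the log2(intensity + 32) scale. Another on the same target accession, 1433732_x_at, read 40.6, 46.9, 46.9 and 48.4. The other 4 probe sets were below the filter's level on every array, with 9.75 as their lowest reading. Whether the gene was expressed is thus uncertain, and a signal at background could not show a fall. The 3 equal readings of 1433731_at are a property of the deposited table, in which 48.0% of probe sets have a value that repeats between arrays, and such repeats make small differences vanish.

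Igf2bp1, also called IMP1 or CRD-BP and known for shielding the Myc mRNA, was likewise close to its control value at each time. Its only probe set above the filter's level, 1459825_x_at, read 107 on the control array and 86.6, 109 and 93.1 on the later ones. It was lowest at 24 h, the array on which Hmga2 was highest, and its differences from the control were -0.23, 0.02 and -0.15. The suffix of this probe set marks probes that can pair with other transcripts, so its signal may not be that of Igf2bp1 alone. The other 3 probe sets were below the filter's level on every array, with 10.8 as their lowest reading.

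Lin28b, the inhibitor of let-7 maturation, had 1 probe set, 1430803_at, which was close to the lowest intensity of the table, 6.99, on every array. It read 7.43 at 24 h and 7.87 on each of the other 3 arrays. Its paralog Lin28a, no member of the set, read 15.9, 14.8, 15.8 and 15.5. At intensities this close to the bottom of the scale a difference between arrays was not detectable, and these readings do not show that either gene was silent.

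The 8 genes whose 3 differences from the control lay nearest to those of Hmga2, by Euclidean distance over the 13522 genes, were Slc14a1, Igfbp3, Upp1, Prkg2, Nefl, Lgr6, Dusp6 and Dusp4. Slc14a1, a urea transporter, was nearest, at a distance of 0.25, and read 2291, 2094.9, 227 and 61.3. Igfbp3, a binding protein of insulin-like growth factors, followed at 0.38, with differences of -0.02, -2.77 and -4.50. The others were further off. Upp1, a uridine phosphorylase, was at a distance of 1.44, and Prkg2, a cGMP-dependent kinase, at 1.48.

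Nefl, a neurofilament subunit, was at a distance of 1.57, Lgr6, an R-spondin receptor, at 1.62, and the ERK phosphatases Dusp6 and Dusp4 at 1.62 and 1.66. At 48 h the differences of these 6 genes lay between -2.69 for Upp1 and -1.68 for Prkg2, and at 72 h between -4.23 for Prkg2 and -3.14 for Upp1, above those of Hmga2 at both times. At 24 h Lgr6 was above the control, at 0.44, whereas Dusp6, Dusp4 and Nefl were below it, at -0.34, -0.30 and -0.31. Another probe set of Lgr6 had a smaller difference, -1.70, than the -3.48 of the brightest at 72 h. The likeness rests on 4 arrays that share 1 control.

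**Figure D2:**
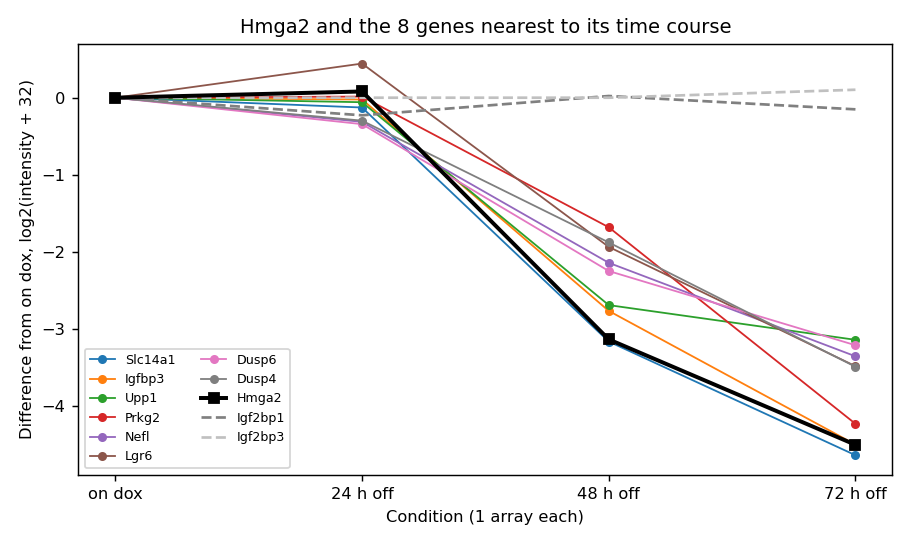
Difference from the control array in log2(intensity + 32) at 24, 48 and 72 h off doxycycline for Hmga2 (black squares), the 8 genes nearest to it (colours) and Igf2bp1 and Igf2bp3 (dashed), with 1 array per condition. Slc14a1 and Igfbp3 run closest to Hmga2, and the dashed lines stay between -0.23 and 0.10.

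The 250 bases before the start that the promoter table gives for Hmga2 are shown because this member was lower after withdrawal. Those of Igf2bp3 are shown because its brightest probe set was not lower. Both are RefSeq sequences of GRCm38.p6, from chr10:120476470-120476719 and chr6:49214955-49215204 on the minus strand, read 5′ to 3′ towards the start. The Hmga2 window adjoins the end of the annotated gene, chr10:120361268-120476469, whereas the Igf2bp3 window lies inside the annotated span, chr6:49085218-49215469, so that gene has a start further out that was not searched. Capitals mark every match, on either strand, to 6 motifs: the site of AP-1, the dimer of FOS and JUN proteins, spelled TGANTCA; the core bound by ETS factors, spelled CCGGAAG; the E-box, spelled CACGTG; the GC box, spelled GGGCGG; the TATA box, spelled TATAAA; and a pyrimidine repeat, CTCTCTCT, chosen after the Hmga2 sequence had been read. None of the matches overlap.
Hmga2: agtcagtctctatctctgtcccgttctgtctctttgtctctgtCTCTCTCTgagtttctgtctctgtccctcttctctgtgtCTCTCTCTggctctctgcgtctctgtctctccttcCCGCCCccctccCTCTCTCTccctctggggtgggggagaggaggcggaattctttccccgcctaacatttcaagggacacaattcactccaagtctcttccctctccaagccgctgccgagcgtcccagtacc
Igf2bp3: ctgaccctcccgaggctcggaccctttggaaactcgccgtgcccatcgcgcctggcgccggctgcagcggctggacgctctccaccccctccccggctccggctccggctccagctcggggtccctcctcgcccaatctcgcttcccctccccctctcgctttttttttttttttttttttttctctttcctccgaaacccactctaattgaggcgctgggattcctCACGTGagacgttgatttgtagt

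The Hmga2 window held 3 pyrimidine repeats and 1 GC box, and the Igf2bp3 window 1 E-box. Over all 32851 promoter windows of this length, 3.53% held the repeat, 32.7% the GC box and 6.02% the E-box. Neither window held the AP-1, ETS or TATA letters, which were in 6.75%, 6.91% and 12.4% of all windows, and the window of Lin28b, which likewise lies inside its gene's annotated span, held 1 E-box and none of the other letters. Pyrimidines made up 70.8% of the Hmga2 strand, 68.0% of that of Igf2bp3 and 44.8% of that of Lin28b, against a median of 50.0% over all windows. These are matches of letters, and no binding was measured.

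Genes known as let-7 targets, other than the members, did not move together. Of 30 listed genes 27 had a probe set and 24 were kept. At 72 h 11 were above the control and 11 below it. Of the 24, 1 gene was 2-fold higher and 1 lower, against 2.29% and 1.63% of all genes, so little is read from these single calls. The medians of the differences were 0.03, -0.04 and 0.00 in time order, against 0.00 over all genes at each time. Ccnd1, which encodes cyclin D1, read 9864 on the control array and 10149.7, 3222 and 1305 on the later ones, with differences of -1.65 from 24 to 48 h and -1.28 from 48 to 72 h. Cdk6, the kinase that cyclin D1 activates, read 346.2, 364, 193 and 178. Fign, a microtubule-severing ATPase, went the other way, with 68.6, 99.1, 166 and 213, and the TGF-beta receptor Tgfbr1 read 154, 218, 225 and 304. Other probe sets differed less at 72 h, by 0.01 to 0.64 for Fign, where the brightest was at 1.28, by -0.02 to 0.18 for Tgfbr1, at 0.85, and by -0.63 to -0.08 for Cdk6, at -0.85. Nras, itself on this list, read 163, 256, 163 and 163, and whether its probe sets see the inducible NRAS is not known from the labels.

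Genes that process microRNAs or carry out their repression were more often above the control than below it. All 23 listed genes had a probe set and 22 were kept; 20 were above the control at 24 h and 16 at both 48 and 72 h, with medians of 0.22, 0.17 and 0.22. Over all genes 49.0%, 45.3% and 46.8% were above the control, with a median of 0.00 at each time, and with averaged probe sets the list's 72 h median was 0.12. At 72 h 2 of the 22 were 2-fold higher, against 2.29% of all genes: Trim25, a ubiquitin ligase that acts on the let-7 precursor with LIN28A, at 1.28, and Tnrc6b, a partner of Argonaute, at 1.11. Their other probe sets lay between -0.03 and 1.16 for Trim25 and between 0.07 and 0.60 for Tnrc6b. Trim25 read 91.4, 129, 98.0 and 267, so it was high on the 72 h array only. The helicases Ddx17 and Ddx5, parts of the Drosha complex, differed by 0.95 and 0.70 at 72 h, although other probe sets lay between -0.08 and 0.84 for Ddx17 and between -0.51 and 0.99 for Ddx5. Tut4 and Tut7, the terminal uridylyltransferases that LIN28A recruits, were at 0.32 and 0.55, with other probe sets at 0.19 or less for Tut4 and at 0.11 for Tut7. Dicer1, which cuts the precursor, read 154 at 24 h and 119 on each of the other arrays with its brightest probe set, while another was above the control by 0.42, 0.47 and 0.52.

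Among the other HMG proteins no kept gene had a fall like that of Hmga2, which was chosen for its fall. Of 12 listed genes 9 had a probe set and 7 were kept, none of them 2-fold different at any time. At 72 h 1.63% of all genes were 2-fold lower and 2.29% higher, so a list of 7 genes would mostly hold no call. The medians were 0.12, 0.03 and 0.12. Hmgb3, an HMG-box protein of progenitor cells, read 124 on the control array and 260, 234 and 201 on the later ones, higher on all 3 off arrays. Hmgb2, which is abundant in dividing cells, read 108, 158, 98.4 and 90.2, highest at 24 h. Its other probe sets lay between 0.03 and 0.10 at 48 h and between -0.01 and 0.10 at 72 h. Hmgn1, a nucleosome-binding protein, was steadier, at 1779.0, 1763.7, 1714.8 and 1953.2.

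Among genes linked to HMGA2 as downstream of it, 8 of 10 were kept, of which none was 2-fold lower at 24 h, 2 were at 48 h and 3 at 72 h, against 0.0666%, 1.04% and 1.63% of all genes. The list gives no expected direction for its genes, so these counts do not say whether the action of HMGA2 was lost. Cdkn2b, the CDK inhibitor p15, read 699, 622, 245.4 and 189. Snai1, a transcription factor of epithelial-mesenchymal transition, read 369.8, 284, 169 and 135, below the control on each off array. Junb, an AP-1 subunit, differed by 0.28, -0.33 and -1.01. Snai2, a relative of Snai1, was higher at 72 h, by 0.76, although its other probe set was at 0.17. The cyclins Ccna2 and Ccnb2 were at 0.00 and 0.25 at 72 h. The medians were 0.00, -0.08 and -0.26, and with no level filter the last was 0.00.

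Messenger RNAs bound by IGF2BP proteins gave 6 kept of 10 listed genes, with medians of 0.15, 0.01 and -0.37. Cd44, a hyaluronan receptor, read 1007.4, 950, 661 and 352, a difference of -1.44 at 72 h, although its other probe sets lay between -1.18 and 0.00. It was the only 2-fold call against the control among the 6 genes, where 1.63% of all genes were 2-fold lower at 72 h. Myc read 111, 146, 70.6 and 54.1, highest at 24 h. Actb, the zipcode mRNA that IGF2BP1 carries in migrating cells, differed by 0.42, 0.27 and -0.55, but its other probe set was at 0.03 at 72 h. Igf2, for which the family is named, read 58.8, 58.0, 64.0 and 58.7, with little difference between the arrays. Its other probe set was below the control, at -0.18, -0.27 and -0.18.

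Proteins found with IGF2BP in mRNA granules showed no 2-fold difference from the control among 15 kept of 15 listed. Over all genes 0.0666%, 1.04% and 1.63% were 2-fold lower at 24, 48 and 72 h, and 0.266%, 0.754% and 2.29% higher. In lists as short as this and the next, few or no calls are thus likely, and nothing is read from counts of 0. The medians of the granule list were 0.21, -0.01 and -0.09. Ybx1, a cold-shock protein of these granules, differed by 0.25, -0.18 and -0.48, the RNA helicase Dhx9 by 0.43, 0.71 and 0.48, Matr3, a nuclear matrix protein, by 0.58, 0.43 and 0.25, and Fxr2, a relative of FMRP, by -0.27, -0.27 and -0.35. At 72 h other probe sets lay between -0.13 and 0.00 for Ybx1 and between -0.07 and 0.18 for Dhx9. The machinery of m6A, an mRNA mark that IGF2BP proteins read, also had 0 of 12 kept genes 2-fold different, with medians of 0.03, 0.00 and 0.12. Mettl3, the writing enzyme, read 142, 118, 100.1 and 114, and the reader Ythdf1 differed by -0.05, -0.38 and 0.15. Other probe sets of Ythdf1 lay between 0.00 and 0.03 at 48 h and at 0.00 at 72 h.

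**Figure D3:**
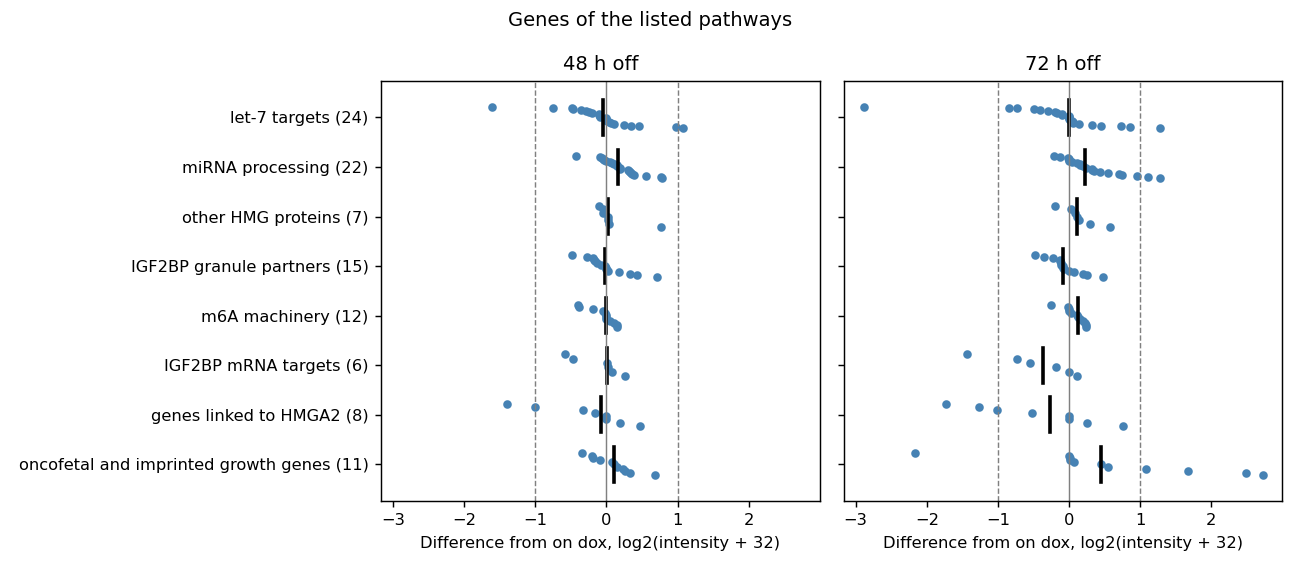
Difference from the control array in log2(intensity + 32) at 48 h (left) and 72 h (right) for the genes kept from each list, with the number of genes in brackets, a black bar at the list's median and dashed lines at 1 in size. At 72 h the median of let-7 targets lies at 0.00 and that of genes that process microRNAs at 0.22, and single genes such as Ccnd1, at -2.89, stand apart.

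Markers of the tumour and of other cells were read on the same arrays as Hmga2. The summed intensity of 12 melanocytic markers, which the tumour cells should supply, was 4296 on the control array and 4055, 5252 and 4526 on the later ones. Most of this sum was the brightest probe set of Sox10, a neural crest transcription factor, at 3770.5, 3613, 4681 and 3844, whereas other Sox10 probe sets differed by -0.55 to -0.09 at 72 h. Of the 12 markers 1, 5 and 5 were above the control in turn, and Tyr, Tyrp1 and Mlana, pigment genes that define melanocytes, were below the filter's level. Summed fibroblast markers (8 genes) were higher at 48 and 72 h, at 16846, 17400, 36252 and 67038 over the 4 arrays. Macrophage markers (6 genes) were at 2984, 5463, 4810 and 9865, skeletal muscle (10) at 455, 801, 416 and 4547, fat (6) at 485, 252, 684 and 2276, and endothelial cells (6) at 358, 329, 337 and 601. At 72 h the markers above the control numbered 6, 8, 4 and 6 in the same order. Keratinocyte markers (5) stayed between 182 and 194. S phase markers (13) were at 1986.5, 3295, 2053 and 1900.1, highest at 24 h like Hmga2. Unlike Hmga2, this sum was near its control value at 48 and 72 h. The part of these changes in the Hmga2 result was not tested.

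**Figure D4:**
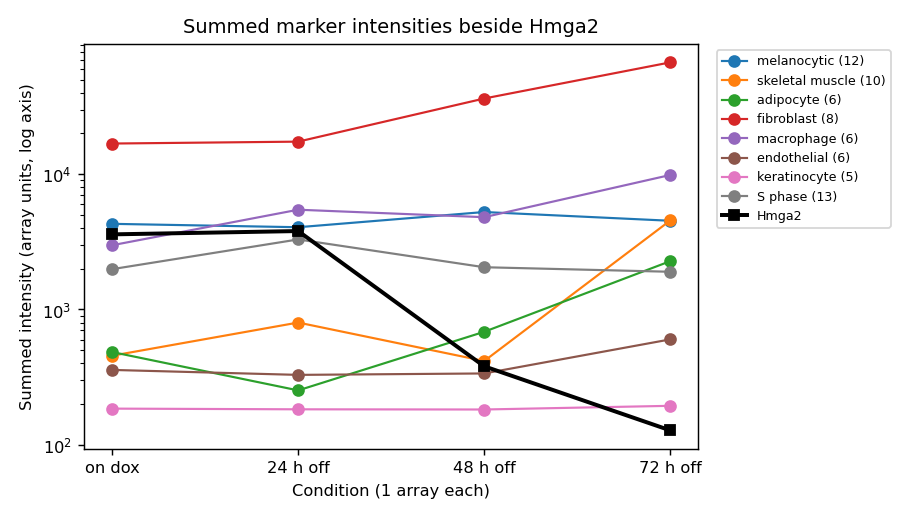
Summed intensity (array units, log axis) of the markers of each cell type, with the number of genes in brackets, and the intensity of the brightest Hmga2 probe set (black squares), on the control array and at 24, 48 and 72 h off doxycycline. Fibroblast, macrophage, muscle and fat sums are highest at 72 h, the melanocytic sum lies between 4055 and 5252, and Hmga2 goes from 3591 to 127.8.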

How the data were processed

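Per the labels' protocols, 10 ug of total RNA of each of 4 tumours was made into biotinylated cRNA for an Affymetrix array. The authors deposited 1 linear intensity per probe set and array; MAS5 and RMA are both named, per the submitters' processing notes, without saying which made the values. Intensities ran from 6.99 to 19970, with array medians of 33.3 to 34.0. The number of arrays limits the precision. Symbols came from the platform annotation: 34945 of 45037 probe sets had a single symbol, 932 several and 9160 none listed. A gene took its probe set with the highest mean, and genes whose mean reached the 40th percentile over probe sets, 24.9, were kept. From the deposited intensities log2(intensity + 32) was taken, with no further normalization, and arrays were subtracted (Python 3.11.15, pandas 2.3.3, NumPy 2.4.6, Matplotlib 3.10.9). The steps were tested on simulated data. Myc, Dicer1, Trim71, Lin28a and Igf2 are each on more than one list. The members, lists and tests were chosen with earlier results of these data known. The rule named all members, Nras, the 8 genes nearest to Hmga2 and up to 4 genes per list with the greatest mean size of difference at 48 and 72 h. Hmg20b, Map1b, Alkbh5 and Ythdc1 met this rule but are not described with their lists. Their differences from the control at 72 h were 0.29, -0.19, 0.24 and 0.19. Lin28a, Dicer1, Tut4, Tut7, Ccna2, Ccnb2, Igf2, Sox10 and Cdkn1c were added after their values had been seen. Identities between the proteins, planned for the design, were not computed. The alternatives are described in the closing section.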

Additional observations from a re-analysis of the deposited data

How the results depend on the processing

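The call of Hmga2 as 2-fold lower at 48 and 72 h, and of no other member, was kept under quantile normalization, median centring, other pseudocounts, other filters, the mean over probe sets and the removal of _x_at and _s_at probe sets. Its difference ranged from -3.24 to -2.24 at 48 h and from -4.81 to -3.21 at 72 h. The lowest sizes came from the mean over probe sets (-2.24 and -3.21), which includes the dim 1446196_at; a pseudocount of 128 gave -3.86 at 72 h. At 24 h it ranged from 0.05 to 0.41. From 48 to 72 h the count of members 2-fold lower went from 1 to 0 under both of these settings.

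The counts over all genes depended on the pseudocount and on how probe sets were joined. With a pseudocount of 128, 1, 58 and 118 genes were 2-fold lower at 24, 48 and 72 h (9, 141 and 220 in the main setting) and 12, 39 and 168 higher (36, 102 and 309). Over the 24 to 48 h, 48 to 72 h and 24 to 72 h steps there were then 58, 17 and 119 lower (136, 29 and 250) and 35, 66 and 148 higher (77, 124 and 266). With a pseudocount of 8, 18 were lower at 24 h and 154 higher at 48 h. With no pseudocount, a choice made after seeing the data, 29 and 212 were lower at 24 and 48 h, 68, 186 and 501 higher at 24, 48 and 72 h, 223 and 45 lower over the first pair of steps and 124 and 187 higher. With probe sets averaged, 5, 81 and 139 were lower, 54 and 193 higher at 48 and 72 h, 77 and 154 lower over the 24 to 48 h and 24 to 72 h steps, and 51 higher over the first.

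Of the list medians against the control, those of 4 lists moved by over 0.1. For oncofetal and imprinted growth genes the median at 72 h, 0.45, was 0.58 with a pseudocount of 8, 0.25 with 128, 0.59 with none, 0.13 with no level filter, 0.20 with averaged probe sets and 0.26 without _x_at and _s_at sets, and at 24 h, from 0.15, it was 0.046 and 0.029 with the last pair. For IGF2BP mRNA targets the 72 h median, -0.37, was -0.25 with a pseudocount of 128, -0.094 with no filter and -0.18 with averaged probe sets, and the 24 h median was 0.033 with no filter. For genes linked to HMGA2 the 72 h median, -0.26, was -0.16 and 0.00 with a pseudocount of 128 and no filter. For microRNA processing genes the 72 h median, 0.22, was 0.12 with averaged probe sets and 0.34 with no pseudocount. The cause of these shifts was not tested. Of the 8 genes nearest to Hmga2, 5 were shared when the 72 h array was left out of the distance or probe sets were averaged.

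No paired analysis was possible because each condition had 1 array. That number limits every value: no difference has a replicate error. Readings near the bottom of the scale, as for Lin28b, cannot show a difference.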

Other observations

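Imprinted and fetal growth genes, a list that stands beside the oncofetal members, gave larger single differences than most of the lists in the report. Of 15 listed genes 11 were kept; at 72 h 4 were 2-fold higher and 1 was 2-fold lower than on doxycycline, against 2.29% and 1.63% of all genes, with a median of 0.45. Dlk1, a transmembrane inhibitor of adipocyte formation, read 6791 on the control array and 7294, 5332 and 1490.3 on the later ones. Unlike Hmga2 it was still near the control at 48 h, with a difference of -0.35, and at 72 h it was at -2.16, although its other probe set was at -0.28. Meg3, the long noncoding RNA of the same imprinted locus, went the other way, with 396, 461, 370 and 2785, and its other 10 probe sets lay between -0.27 and 2.24 at 72 h.

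Plagl1, an imprinted zinc finger protein that restrains growth, read 53.6, 63.1, 63.0 and 448, high on the 72 h array only, while its other probe sets lay between -0.02 and 0.01. Mest, an imprinted gene of mesoderm, read 108, 258, 193 and 415, above the control on each off array. The imprinted CDK inhibitor Cdkn1c read 23.7, 22.7, 33.2 and 85.5. The 72 h array was also the one with the highest fibroblast, muscle and fat markers, whose summed intensities were 67038, 4547 and 2276, against 16846, 455 and 485 on doxycycline, and their part in these values was not tested.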
